A study of Mus musculus with 18 samples.

Results

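Border-associated and infiltrating macrophages are the myeloid cells of the brain that are not microglia, and 9 genes used to recognise them, *Mrc1*, *Cd163*, *Pf4*, *Lyz2*, *F13a1*, *Ms4a7*, *Cbr2*, *Lyve1* and *Ccr2*, are described here. They are 9 of 35823 gene names in a count table of 116873 transcripts, chosen by name and not by their values, and the counts of all transcripts with the same name were summed. The table held 29 transcripts of these 9 genes, all of which are in the GENCODE M39 annotation of GRCm39.

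RNA came from astrocyte, microglia and neuronal fractions of the brains of mice at the age of 10 months, in 18 libraries with 3 for each fraction and genotype. KIN mice were homozygous *Atxn2*-CAG100-KIN animals, in which an expanded CAG repeat was knocked into *Atxn2*, and WT animals were littermates on the same C57BL/6 background. The mutant and WT pairs comprised both sexes. From each dissociated brain, microglia were taken with CD11b beads, astrocytes with ACSA-2 beads, and neurons as the cells left after non-neuronal cells and CD31-positive cells had been removed. CD11b is carried by most myeloid cells, so that macrophages, monocytes and neutrophils can enter the fraction labelled microglia, and no later step separated them. The knock-in is carried by every cell of the animal, and the labels do not say whether a replicate number marks the same mouse in the 3 fractions, so that *p* values measure the spread between these libraries.

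Border-associated macrophages live in the meninges, in the spaces around vessels and in the choroid plexus, where they take up and clear material at the surface of the brain. They carry scavenger receptors and lectins that microglia have little of, while monocytes that enter from blood are led by the chemokine receptor *Ccr2*. Lysozyme, encoded by *Lyz2*, is made by macrophages, monocytes and neutrophils alike. In bulk RNA, fewer cells of a type and less RNA per cell cannot be told apart.

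The totals were 2118317 to 3296398 counts per glial library and 761481 to 2017932 per neuronal library. Because a few RNA species took most of the reads, 457683 to 648320 counts of a glial library and 110650 to 303121 of a neuronal library lay outside the 10 most abundant genes. Checked against the fraction labels, 12 genes of microglia identity, such as *Aif1*, *Tmem119* and *P2ry12*, summed to 863 to 1380 CPM (counts scaled to the library size after TMM) in microglia, 11.3 to 22.0 CPM in astrocytes and 13.3 to 22.7 CPM in neurons. In the microglia fraction, neutrophil genes were also present, with *S100a8*, a calcium-binding protein of neutrophils, at 39 to 153 counts per library.

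All 9 genes had reads, but few of them. Over the 18 libraries, *Lyz2* had 620 counts, *Ms4a7* 198, *F13a1* 133, *Ccr2* 99, *Mrc1* 69, *Cd163* 50, *Pf4* 29, *Cbr2* 17 and *Lyve1* 8. These totals are not compared with each other, since the 3′-end method and the length of each transcript enter them. In the microglia fraction, 7 of the 9 had reads in all 6 libraries, whereas 4 of the 9 (*Mrc1*, *Pf4*, *Lyz2* and *Cbr2*) were at 0 in every neuronal library.

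**Figure D1:**
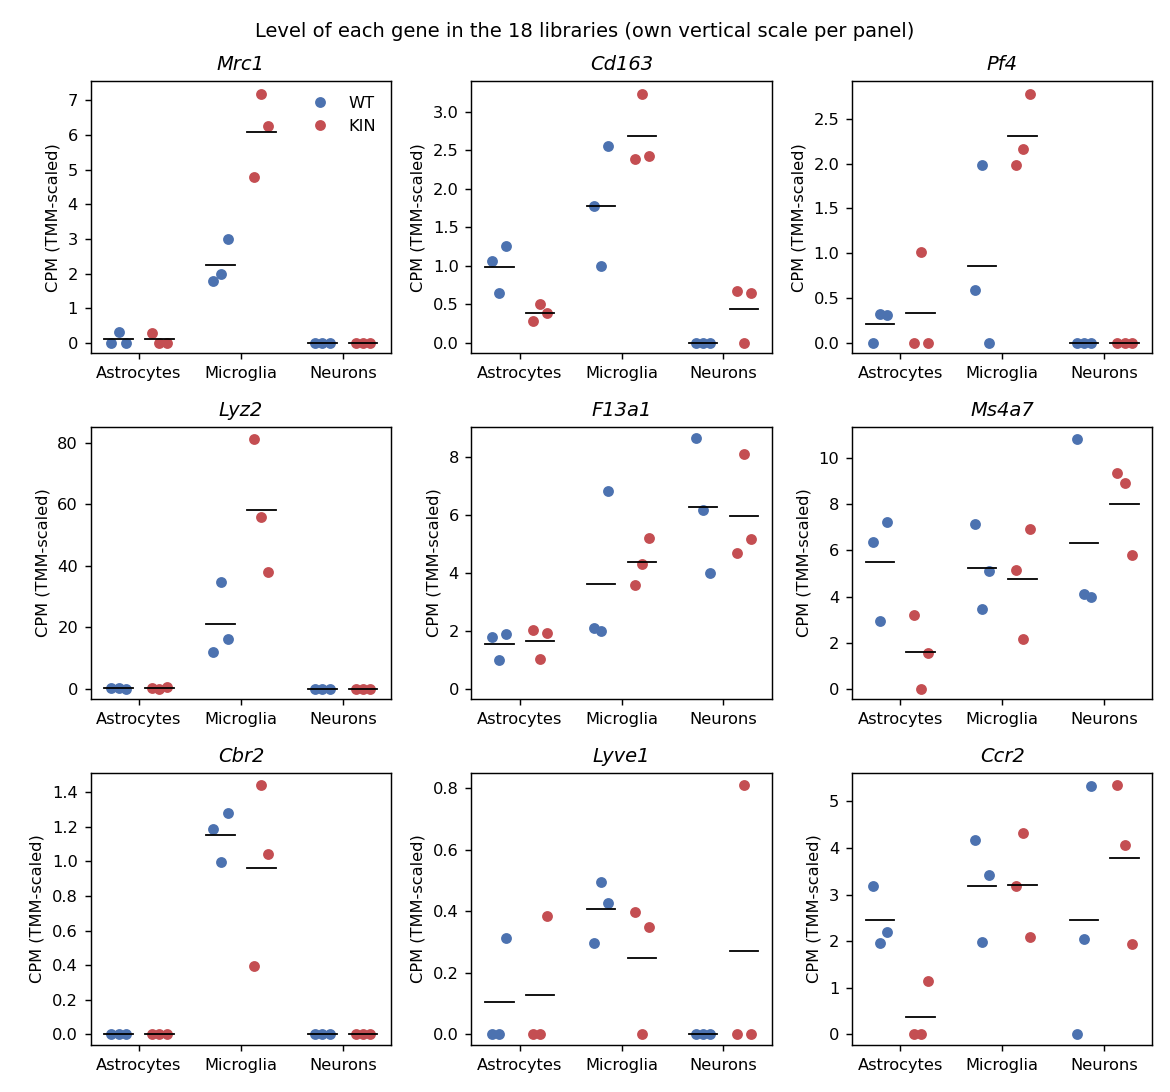
Level of each gene in CPM after TMM scaling (vertical axis, with its own scale in each panel) by fraction and genotype; points are libraries and lines are means of 3. *Lyz2*, *Mrc1* and *Cbr2* stand above 0 mainly in microglia, while *Ms4a7*, *F13a1* and *Ccr2* have reads in all 3 fractions.

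The first comparison asked in which fraction each gene was found. A gene was called if edgeR's quasi-likelihood test, with Benjamini-Hochberg adjustment over all genes tested, gave an adjusted *p* no higher than 0.05 and the log2 fold change was 1 or more in either direction. Of the 9 genes, 7 reached the count minimum (5 counts in at least 2 libraries). *Lyz2*, *Mrc1*, *Pf4* and *Cd163* reached it only through microglia libraries, so that their being tested already depended on a higher level there, and the counts of called genes below are a description. In microglia against astrocytes, 6 of these 7 were called, all higher in microglia, where 33.2% of all genes tested were called in either direction and 14.9% higher. In microglia against neurons, 4 of 7 were called, all higher in microglia, where 27.5% of all genes were called and 17.2% higher. In astrocytes against neurons, 3 of 7 were called, all lower in astrocytes, where 30.7% of all genes were called and 11.4% lower. These were *F13a1* (log2 fold change -1.87), *Ms4a7* (-1.15) and *Ccr2* (-1.53). Without KIN astrocyte library 2, *F13a1* alone kept its call. The *Ms4a7* call was also lost without WT neuronal library 1 (edgeR adjusted *p* = 0.148), and the *Ccr2* call without KIN astrocyte library 1, WT neuronal library 2 or 3, or KIN neuronal library 1 (0.0529 to 0.340). With no filter on low counts, *Ccr2* was not called either (log2 fold change -1.43, edgeR adjusted *p* = 0.0689), and over protein-coding transcripts alone *F13a1* was not (-1.10, edgeR adjusted *p* = 0.9998). At a stricter minimum of a mean of 10 counts, a pair of these genes was left in each of these comparisons and 1 of the pair was called.

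*Lyz2* was nearly confined to the microglia fraction. It had 40, 70 and 38 counts in the WT microglia libraries and 204, 155 and 109 in the KIN libraries, 1, 1 and 0 in WT astrocytes, 1, 0 and 1 in KIN astrocytes, and 0 in all 6 neuronal libraries. The microglia libraries held 99.35% of its counts. The log2 fold change of microglia against astrocytes was 6.89 (SE 0.377, edgeR adjusted *p* = 8.4e-34). Against the floor of 3 counts over the 6 neuronal libraries, the level in microglia was at least 89.5-fold higher.

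*Mrc1*, the mannose receptor CD206, showed the same distribution at a lower count. It had 6, 4 and 7 counts in WT microglia, 12, 20 and 18 in KIN microglia, and in all other libraries together 2 counts, both in astrocytes. Microglia were higher than astrocytes by 4.43 on the log2 scale (SE 0.638, edgeR adjusted *p* = 2.42e-09). On the summed counts, this was a ratio of 36.1 with a 95% exact counting interval from 9.61 to 304. Against the floor of 3 counts over the neuronal libraries, microglia were at least 9.74-fold higher. Most of its reads, 61 of the 67 in microglia, lay on the protein-coding transcript Mrc1-201.

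*Cbr2*, a carbonyl reductase used as a marker of border macrophages, was the only one of the 9 with reads in microglia alone. It had 4, 2 and 3 counts in WT microglia and 1, 4 and 3 in KIN microglia, and 0 in the other 12 libraries. It missed the count minimum, and the exact permutation test of 6 microglia libraries against 12 others gave *p* = 5.39e-05 (two-sided), the smallest that this test allows. The test exchanged all libraries as if independent, although the fractions were taken in turn from the same brains. Its *p* leaves out that sharing and is given as a description. Against the floor of 3 counts over each fraction, microglia were at least 6.10-fold higher than astrocytes and at least 2.47-fold higher than neurons.

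*Pf4*, the platelet chemokine CXCL4 that border macrophages also make, had 2, 4 and 0 counts in WT microglia and 5, 6 and 8 in KIN microglia. Astrocytes had 0, 1 and 1 counts in WT and 0, 2 and 0 in KIN, and neurons had none. Microglia were higher than astrocytes by 2.27 on the log2 scale (SE 0.780, edgeR adjusted *p* = 0.0124) and at least 3.63-fold higher than the neuronal floor. Without WT microglia library 2, the call against astrocytes was lost (log2 fold change 1.74, edgeR adjusted *p* = 0.152). In the same 6 libraries *Pf4* lay between 0 and 2.78 CPM, and 6 platelet and megakaryocyte genes summed to 1.74 to 5.05 CPM. Among these, *Ppbp*, another platelet chemokine, was at 0 in all 6, while *Gp9*, a platelet glycoprotein, had 5, 3 and 1 counts in WT and 0, 2 and 2 in KIN. The part of platelets in the *Pf4* counts was not tested.

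*Cd163*, the scavenger receptor for haemoglobin bound to haptoglobin, was higher in microglia than in both other fractions, but not restricted to them. It had 6, 2 and 6 counts in WT microglia and 6, 9 and 7 in KIN microglia, 3, 2 and 4 in WT astrocytes and 1, 1 and 1 in KIN astrocytes. Neurons had 0, 0 and 0 counts in WT and 1, 0 and 1 in KIN. The log2 fold change of microglia against astrocytes was 1.75 (SE 0.543, edgeR adjusted *p* = 0.00539), and the summed counts gave a ratio of 7.85 against neurons with an exact counting interval from 2.02 to 67.3.

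*Lyve1*, the hyaluronan receptor of lymphatic vessels and of a subset of border macrophages, was at the floor throughout. No library had more than 1 count of it, with 5 counts in microglia, 2 in astrocytes and 1 in neurons. Microglia did not differ from the other libraries beyond their spread (exact permutation test, two-sided *p* = 0.114, which again leaves out that the fractions share brains).

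*F13a1*, *Ms4a7* and *Ccr2* were distributed otherwise. *F13a1*, the A subunit of coagulation factor XIII, had 7, 4 and 16 counts in WT microglia and 9, 12 and 15 in KIN microglia, and also 8, 6 and 3 in WT neurons and 7, 10 and 8 in KIN neurons. In astrocytes, it had 5, 3 and 6 counts in WT and 7, 2 and 5 in KIN. The order by CPM was neurons, microglia and astrocytes, at 6.13 ± 1.89, 4.00 ± 1.87 and 1.598 ± 0.474 CPM (SD, n = 6 each). Neurons and microglia did not differ past the threshold (log2 fold change -0.63 for microglia against neurons, SE 0.349, edgeR adjusted *p* = 0.165), while both were above astrocytes. Without WT microglia library 3, which had 16 counts, the call of microglia over astrocytes was lost (log2 fold change 0.86, edgeR adjusted *p* = 0.0877), and microglia were called lower than neurons (-1.01, edgeR adjusted *p* = 0.0328).

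*Ms4a7*, a membrane protein of the CD20-like family that macrophages carry, had 24, 7 and 12 counts in WT microglia and 13, 6 and 20 in KIN microglia. It had 18, 9 and 23 counts in WT astrocytes and 11, 0 and 4 in KIN astrocytes, and 10, 4 and 3 in WT neurons and 14, 11 and 9 in KIN neurons. Neurons were at 7.17 ± 2.92 CPM, microglia at 5.00 ± 1.94 CPM and astrocytes at 3.54 ± 2.78 CPM (SD, n = 6 each). This order is that of both genotypes together, and in WT alone astrocytes, at 5.51 ± 2.27 CPM, lay above microglia, at 5.24 ± 1.83 CPM (SD, n = 3 each). Microglia did not pass the threshold against either of the other fractions (log2 fold change 0.67 against astrocytes, edgeR adjusted *p* = 0.0838, and -0.48 against neurons, edgeR adjusted *p* = 0.291). Without KIN astrocyte library 1, it was called higher in microglia than in astrocytes (1.18, edgeR adjusted *p* = 0.0174).

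*Ccr2*, the receptor of the monocyte chemokine CCL2, had 14, 4 and 8 counts in WT microglia and 8, 12 and 6 in KIN microglia, 9, 6 and 7 in WT astrocytes and 0, 0 and 3 in KIN astrocytes. In WT neurons, it had 0, 2 and 4 counts, and in KIN neurons 8, 5 and 3. Microglia at 3.19 ± 0.993 CPM and neurons at 3.12 ± 2.14 CPM (SD, n = 6 each) did not differ past the threshold (log2 fold change 0.15, SE 0.458, edgeR adjusted *p* = 0.846). Astrocytes were at 1.41 ± 1.27 CPM, lower than microglia (log2 fold change of microglia against astrocytes 1.68, SE 0.467, edgeR adjusted *p* = 0.0018), with KIN astrocytes at 0.384 CPM and WT astrocytes at 2.45 CPM, next to WT neurons at 2.46 CPM. Markers of some blood cells were also present in the neuronal fraction. The 8 monocyte genes summed to 40.03 to 60.8 CPM there and to 15.9 to 30.2 CPM in microglia, with *Ly6c2*, *Vcan* and *Itga4* called higher in neurons. *Vcan* and *Itga4* had reads in every astrocyte and microglia library too, and *Chil3* of this list was at 0 in all neuronal libraries. Of 8 neutrophil genes, 1, *Cxcr2*, had reads in neurons. The 7 lymphocyte genes summed to 20.5 to 30.8 CPM in neurons and 2.48 to 5.22 CPM in microglia, and the 4 erythroid genes to 110 to 507 CPM and 2.48 to 6.83 CPM. Before this fraction was collected, red blood cells had been lysed and cells bound by CD11b beads taken out. The part of blood cells in the neuronal counts of *Ccr2*, *Ms4a7* and *F13a1* was not tested.

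The reads of these 3 genes lay largely on 1 transcript each, which had counts in all 3 fractions. For *Ms4a7*, 95.96% of the counts were on Ms4a7-205, annotated as retaining an intron (chr19:11298869-11313510, minus strand). For *F13a1*, 73.68% were on F13a1-203, annotated without a coding sequence (chr13:37153620-37233189, minus strand). For *Ccr2*, 73.74% were on Ccr2-203, a coding transcript with 2 exons (chr9:123902195-123909544, plus strand). Of their exonic bases, 75.4% of Ms4a7-205, 73.6% of F13a1-203 and 30.5% of Ccr2-203 lie outside the exons of the other coding transcripts of the gene with 2 or more exons, in stretches that these other transcripts splice out.

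In astrocytes, microglia and neurons, F13a1-203 had 27, 32 and 39 counts, and the 4 other transcripts 1, 31 and 3. For these 4, the ratio of microglia to astrocytes was 33.4 (95% exact counting interval 5.56 to 1361), and of microglia to neurons 4.50 (1.41 to 23.0). With protein-coding transcripts alone, a choice made after the values were seen, *F13a1* was called higher in microglia than in neurons, by 3.07 on the log2 scale (edgeR adjusted *p* = 0.0332), against a value of the opposite sign over all transcripts. On these transcripts it reached the count minimum only through microglia libraries, so that this call is a description.

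For *Ms4a7*, 8 counts were left on its other transcripts, 2 in astrocytes, 6 in microglia and 0 in neurons, too few for a statement. For *Ccr2*, Ccr2-203 had 20, 35 and 18 counts in astrocytes, microglia and neurons, and the other transcripts 5, 17 and 4. The ratio of microglia to neurons was 0.848 for Ccr2-203 (95% exact counting interval 0.467 to 1.59) and 1.85 for the other *Ccr2* transcripts (0.604 to 7.57), and these intervals overlap. Reads matching more than 1 transcript were placed on 1 of them with no minimum of mapping quality, so that this split between transcripts is uncertain.

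**Figure D2:**
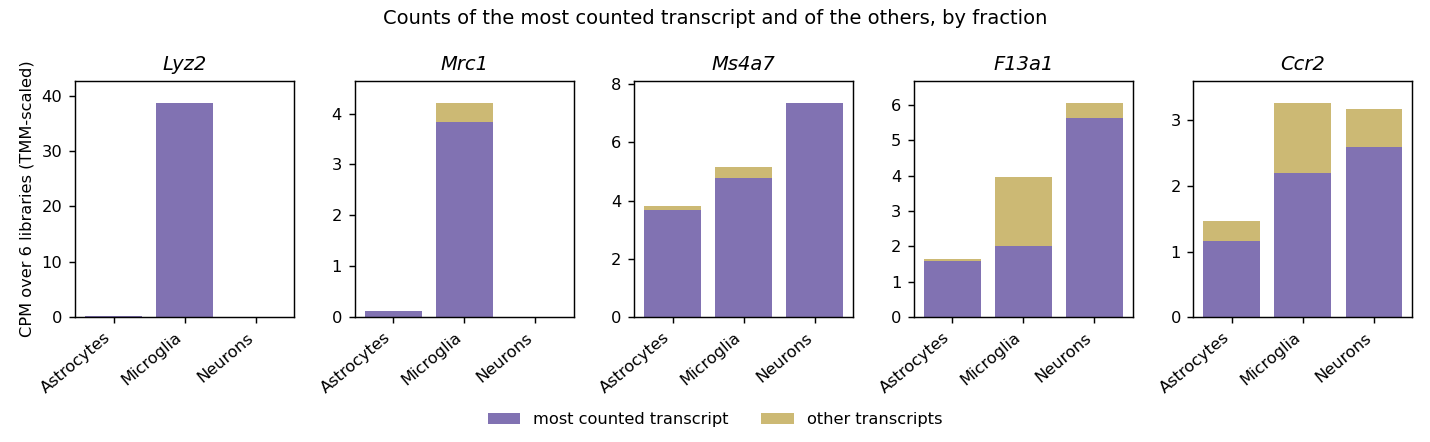
Summed counts over the 6 libraries of each fraction in CPM after TMM scaling (vertical axis, from 0, with its own scale in each panel), divided into the most counted transcript of a gene and its other transcripts. The most counted transcript of *Ms4a7*, *F13a1* and *Ccr2* is present in all fractions, while the other transcripts of *F13a1* have 31 of their 35 counts in microglia.

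The 30-base stretch of each of these transcripts that recurs in the largest number of other genes' transcripts (GENCODE M39, either strand) is shown, because reads from such a stretch cannot be assigned to 1 gene. The position is counted from the 5′ end of the transcript, and capitals mark the whole stretch. The stretch of Ms4a7-205, at bases 2088 to 2117, recurs in transcripts of 4542 other genes, that of Ccr2-203, at bases 500 to 529, in 2080, and that of F13a1-203, at bases 1595 to 1624, in 85.
Ms4a7-205: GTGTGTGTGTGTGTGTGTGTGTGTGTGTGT
Ccr2-203: TCTCTCTCTCTCTCTCTCTCTCTCTCTCTC
F13a1-203: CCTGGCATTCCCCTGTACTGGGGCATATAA
The first 2 are runs of a repeated pair of bases. In all, 3.16% of the 30-base stretches of Ms4a7-205, 4.76% of those of Ccr2-203 and 3.06% of those of F13a1-203 occur in another gene. The share was 0 for Mrc1-201, Pf4-201, Lyve1-201 and the coding transcripts of *Ms4a7* and *F13a1*, but 5.55% to 8.88% for the other *Ccr2* transcripts, 18.9% for Cbr2-201 and 26.4% for Lyz2-201, so that shared stretches were also found in genes with nearly all of their counts in microglia. The counts are given per transcript and not by position, and the part of such stretches in the reads was not tested.

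The second comparison asked how the genes differed between KIN and WT within each fraction. In microglia, 7 of the 9 could be tested and 1, *Lyz2*, was called, against 1.53% of the 10815 genes tested (0.74% higher). *Lyz2* was at 21.0 ± 12.2 CPM in WT and 58.3 ± 21.7 CPM in KIN (SD, n = 3 each), and every KIN library lay above every WT library. The log2 fold change was 1.51 (SE 0.321, edgeR adjusted *p* = 0.0137). The 6 libraries differed among themselves, since KIN ranged from 109 to 204 counts and WT from 38 to 70. The direction was kept in all 6 fits that left out 1 library (log2 fold change 1.19 to 2.05), but the call was lost without WT library 1 (edgeR adjusted *p* = 0.147), WT library 3 (0.130), KIN library 1 (0.138) or KIN library 2 (0.0806).

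*Mrc1* averaged 2.25 ± 0.643 CPM in WT microglia against 6.08 ± 1.22 CPM in KIN microglia (SD, n = 3 each), and its KIN libraries, with 12, 20 and 18 counts, all lay above the WT libraries. The log2 fold change of 1.45 (SE 0.394) was close to that of *Lyz2* and did not pass the threshold (edgeR adjusted *p* = 0.0579). It passed without WT library 2 (log2 fold change 1.39, edgeR adjusted *p* = 0.0484), and over protein-coding transcripts alone (1.51, edgeR adjusted *p* = 0.0412), a setting chosen after the values were seen. In the other alternatives it did not, with edgeR adjusted *p* values up to 0.32.

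*Pf4* had a log2 fold change of 1.51 in KIN microglia, with an SE of 0.740 (edgeR adjusted *p* = 0.418). With 1 library left out, this value ran from 0.99 to 2.58 (edgeR adjusted *p* from 0.105 to 0.772). The counts of *Pf4* gave a ratio of KIN to WT of 3.00 with an exact counting interval from 1.15 to 9.16, which leaves out the spread between libraries. Its KIN libraries lay above the WT libraries by a narrow margin, 1.99 CPM being both the highest WT value and the lowest KIN value after rounding. *Pf4* reached the count minimum only through its KIN libraries, so that its place among the tested genes depended on their level. With it, 3 of 7 tested genes (*Lyz2*, *Mrc1* and *Pf4*) were without overlap between genotypes and with KIN higher, as were 8.42% of all genes tested, which is given as a description, and none of the 7 was without overlap with KIN lower (7.59% of all genes).

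The other 4 tested genes overlapped between genotypes in microglia. *Cd163* had a log2 fold change of 0.57 (SE 0.512, edgeR adjusted *p* = 0.777), and *F13a1* of 0.32 (SE 0.436, edgeR adjusted *p* = 0.886). *Ms4a7* was at -0.19 (SE 0.386, edgeR adjusted *p* = 0.944) and *Ccr2* at -0.06 (SE 0.429, edgeR adjusted *p* = 0.990). *Cbr2*, with 9 counts in WT and 8 in KIN, had a ratio of 0.841 with an exact counting interval from 0.282 to 2.45. *Lyve1*, with 3 counts in WT and 2 in KIN, had a ratio of 0.631 with an interval from 0.0527 to 5.50. The same ratio of summed counts for *Lyz2* was 2.99, with an interval from 2.48 to 3.62. The median log2 fold change of the 7 tested genes was 0.57, beside -0.0029 over all genes.

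**Figure D3:**
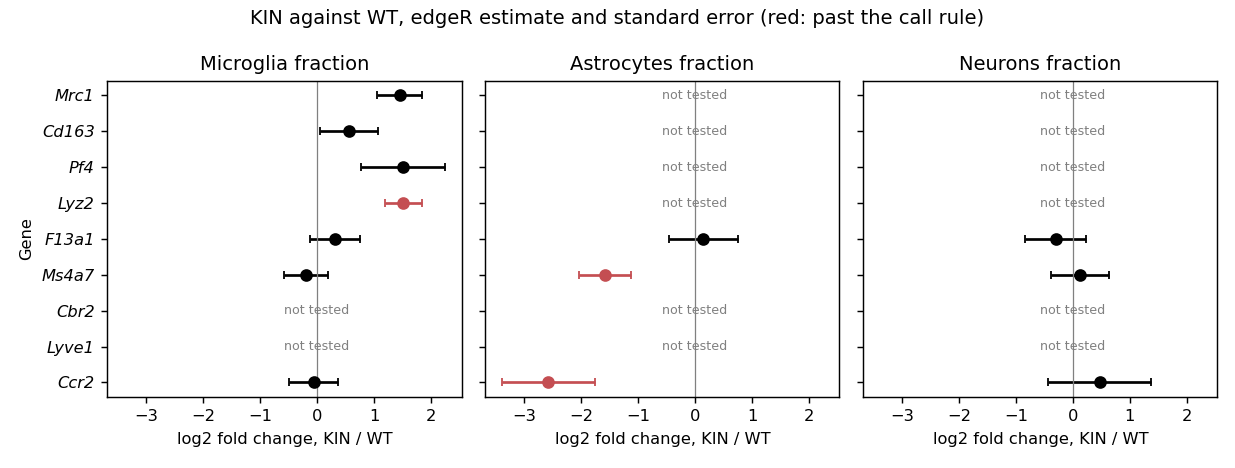
Log2 fold change of KIN against WT (horizontal axis; points are edgeR estimates and bars 1 SE) for each gene in the 3 fractions, with genes under the count minimum marked as not tested. *Lyz2*, *Mrc1* and *Pf4* lie between 1.45 and 1.51 in microglia, and *Ms4a7* and *Ccr2* lie at -1.58 and -2.57 in astrocytes.

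To set the genes beside the amount of microglia RNA, their counts were divided by those of the 12 microglia identity genes in the same library. Per 100 identity counts, *Lyz2* had 1.34, 2.52 and 1.88 counts in WT and 6.44, 4.97 and 3.26 in KIN. For *Mrc1* the values were 0.201, 0.144 and 0.346 in WT against 0.379, 0.641 and 0.538 in KIN. KIN and WT libraries did not overlap in either. Of the identity genes themselves, none of 12 was called by edgeR or DESeq2, *C1qa* and *P2ry12* had an unadjusted *p* under 0.05 in edgeR, and the median log2 fold change was 0.0091. The divisor is a sum, in which *C1qa* had the most counts in each library. *C1qa* was at 261, 328 and 267 CPM in WT and 423, 433 and 452 CPM in KIN. *P2ry12* went the other way, at 22.6, 41.2 and 23.5 CPM in WT and 15.5, 19.8 and 16.7 CPM in KIN. For *S100a8* the values per 100 identity counts were 3.82, 3.17 and 4.10 in WT against 1.23, 4.90 and 1.315 in KIN, with overlap between the genotypes.

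**Figure D4:**
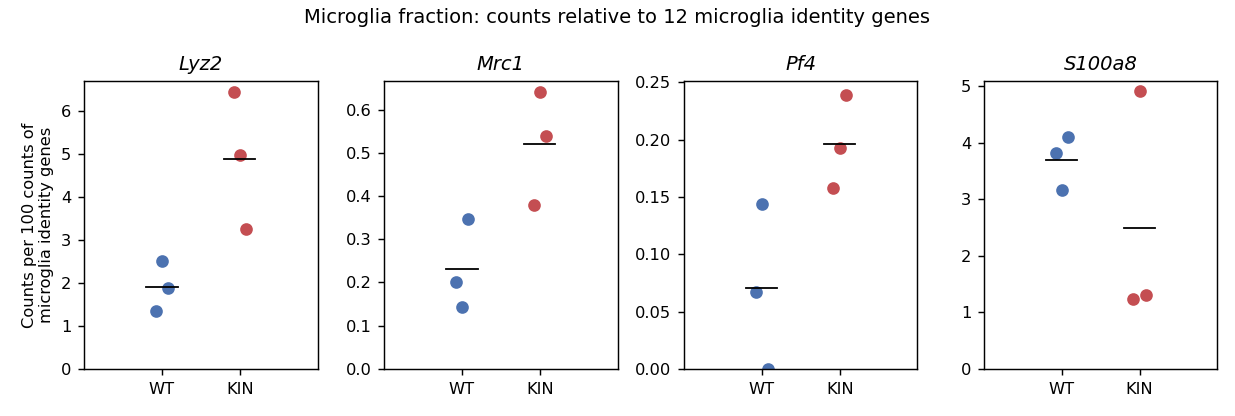
Counts per 100 counts of 12 microglia identity genes (vertical axis, from 0) in the microglia libraries of WT and KIN; points are libraries and lines are means of 3. *Lyz2* and *Mrc1* are higher in every KIN library than in every WT library, while *S100a8* overlaps.

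No tested marker of neutrophils or monocytes was called by edgeR in KIN microglia. Of 8 neutrophil genes, 4 were tested, 0 had an unadjusted *p* under 0.05, and DESeq2 called 0 of the 2 to which it gave an adjusted *p* (*S100a8* -0.39, edgeR adjusted *p* = 0.763, and *S100a9* -0.16, edgeR adjusted *p* = 0.947), and the list summed to 64.8 to 85.5 CPM in WT and 33.7 to 109 CPM in KIN, with *Ly6g* and *Camp* at 0 in KIN. Of 8 monocyte genes, 5 were tested and none was called, 2 had an unadjusted *p* under 0.05, and DESeq2 gave none of them an adjusted *p*. Among them was *Ly6c2* (log2 fold change 0.70, edgeR adjusted *p* = 0.805), and the 8 genes summed to 15.9 to 20.04 CPM in WT and 21.2 to 30.2 CPM in KIN without overlap. The part of monocytes in the *Lyz2* result was not tested. Of 12 further border macrophage genes, 9 were tested and none was called by edgeR, and *Maf* and *Siglec1* had an unadjusted *p* under 0.05. DESeq2 called 0 of the 3 to which it gave an adjusted *p*. The median log2 fold change was -0.08. The list summed to 181 to 207 CPM in WT and 164 to 179 CPM in KIN, without overlap and with KIN lower. Positive values were found for *Folr2*, a folate receptor (0.86, edgeR adjusted *p* = 0.783), and *Siglec1*, a sialic acid-binding adhesion receptor (0.75, edgeR adjusted *p* = 0.273), among others. *Maf* was lower, at 48.4, 50.7 and 47.3 CPM in WT and 31.8, 29.9 and 36.2 CPM in KIN. *Stab1* and *Maf* of that list are also expressed by microglia.

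The genes of reactive microglia did move in the same libraries. All 8 on the list were called higher in KIN, with *Cst7*, a cystatin, at a log2 fold change of 4.07 (SE 0.527), *Gpnmb*, a membrane glycoprotein, at 4.00 (SE 0.377) and *Spp1*, osteopontin, at 3.95 (SE 0.494; edgeR adjusted *p* from 5.5e-07 to 5.08e-05 for the 3). All 8 are named in the study of these samples, so that their direction is no independent evidence. They summed to 24.7 to 28.3 CPM in WT and 146 to 201 CPM in KIN. The fold changes of *Lyz2* and *Mrc1* were smaller than those of 7 of these genes and larger than that of *Lpl*, lipoprotein lipase, at 1.2012. The part of reactive microglia in the *Lyz2* result was not tested. Of 5 neuronal genes in microglia, *Snap25*, a synaptic protein, was called lower in KIN (log2 fold change -2.23, edgeR adjusted *p* = 0.0173). All 5 had an unadjusted *p* under 0.05 in edgeR, with a median log2 fold change of -2.17. They summed to 9.94 to 35.4 CPM in WT and 4.32 to 6.76 CPM in KIN, without overlap. Of 10 vessel and fibroblast genes, 5 were tested and *Cldn5*, a tight junction protein of vessels, was called lower, with 18, 16 and 12 counts in WT and 2, 6 and 3 in KIN (-2.12, edgeR adjusted *p* = 0.0137), while DESeq2 gave neither it nor *Snap25* an adjusted *p*. The list summed to 46.1 to 57.1 CPM in WT and 51.5 to 55.7 CPM in KIN. The 4 oligodendrocyte genes summed to 17.9 to 21.1 CPM in WT and 7.96 to 10.8 CPM in KIN, without overlap, and neither of the 2 tested was called by edgeR, though both had an unadjusted *p* under 0.05.

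Ligands, partners and growth factors of these genes were examined as a further list of 10, of which 7 were tested in microglia. *Csf1*, a growth factor on which macrophages and microglia depend, was called higher, with 40, 16 and 21 counts in WT and 104, 94 and 125 in KIN (log2 fold change 2.02, SE 0.255, edgeR adjusted *p* = 3.7e-05). Its receptor *Csf1r* was not called (0.10, edgeR adjusted *p* = 0.953). The *Ccr2* ligands *Ccl2*, with 23, 26 and 18 counts in WT and 10, 16 and 12 in KIN (-0.92, edgeR adjusted *p* = 0.191), and *Ccl12*, with 8, 5 and 1 in WT and 11, 15 and 11 in KIN (1.31, edgeR adjusted *p* = 0.191), had values of opposite sign and did not pass. Both had an unadjusted *p* under 0.05 in edgeR, and neither overlapped between genotypes in CPM. No overlap was also found in 7.59% of all genes tested with KIN lower and in 8.42% with KIN higher. *Hp* and *Hmox1*, haptoglobin and the haem oxygenase downstream of *Cd163*, were at 0.37 and 0.30 and were not called. The *Pf4* receptor *Cxcr3* was at 0 in all microglia and astrocyte libraries and had 3, 1 and 0 counts in WT neurons and 7, 3 and 2 in KIN neurons.

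In astrocytes, 3 of the 9 genes could be tested and 2 were called, both lower in KIN, where 8.84% of the 11738 genes tested were called (6.42% lower). Both reached the count minimum only through the WT libraries, where they were higher, so that this count is a description. *Ms4a7* was at 5.51 ± 2.27 CPM in WT and 1.57 ± 1.59 CPM in KIN (SD, n = 3 each), a log2 fold change of -1.58 (SE 0.463, edgeR adjusted *p* = 0.0165), and the genotypes overlapped, since WT library 2 with 9 counts lay among the KIN libraries. *Ccr2* was at 2.45 ± 0.653 CPM in WT and 0.384 ± 0.665 CPM in KIN (SD, n = 3 each), a log2 fold change of -2.57 (SE 0.824, edgeR adjusted *p* = 0.0301). The 3 KIN libraries of *Ccr2*, 2 of them at 0, all lay below the WT libraries, which among the 3 tested genes held for *Ccr2* alone and for 14.1% of all genes. *F13a1* was at 0.15 (SE 0.605, edgeR adjusted *p* = 0.919).

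Each of the 2 calls was lost in 4 of the 6 fits that left out 1 library. The direction was kept in all 6, with log2 fold changes from -2.61 to -1.17 for *Ms4a7* and from -5.85 to -1.83 for *Ccr2*. The *Ms4a7* call was lost without WT library 1 (edgeR adjusted *p* = 0.0888), WT library 3 (0.153), KIN library 2 (0.0973) or KIN library 3 (0.0966), and the *Ccr2* call without WT library 1 (0.135), WT library 3 (0.0803), KIN library 1 (0.175) or KIN library 2 (0.0922). The changes lay on the transcripts described above: Ms4a7-205 had 18, 9 and 22 counts in WT and 11, 0 and 3 in KIN, and Ccr2-203 went from 7, 5 and 7 in WT to 0, 0 and 1 in KIN. The other *Ccr2* transcripts had 2, 1 and 0 counts in WT and 0, 0 and 2 in KIN.

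In the same astrocyte libraries, 3 of 5 neuronal genes were called lower by edgeR, *Snap25* (67, 23 and 62 counts in WT, 9, 7 and 7 in KIN), *Rbfox3*, a nuclear protein of neurons (42, 10 and 50 in WT, 11, 0 and 8 in KIN), and *Gad1*, which makes GABA. Their log2 fold changes were -2.54, -2.26 and -1.70 (edgeR adjusted *p* from 1.75e-06 to 0.0322). DESeq2 called *Snap25* alone, with *Rbfox3* at a DESeq2 adjusted *p* of 0.176 and none given for *Gad1*. The other two did not follow them. *Tubb3*, a neuronal tubulin, had 22, 17 and 32 counts in WT and 35, 28 and 55 in KIN, a log2 fold change of 0.92 (edgeR adjusted *p* = 0.0219) that was under the fold limit of 1, and *Map2*, a microtubule protein, was at -0.23 (edgeR adjusted *p* = 0.631). The 5 neuronal genes summed to 31.9 to 72.2 CPM in WT and 29.4 to 47.2 CPM in KIN. WT library 2 was the lowest WT library for *Snap25*, *Rbfox3* and *Ms4a7* alike, and KIN library 2 had 0 counts of both *Rbfox3* and *Ms4a7*. The 12 microglia identity genes summed to 16.6 to 22.0 CPM in WT astrocytes and 11.3 to 15.7 CPM in KIN astrocytes, without overlap, with *Aif1*, *P2ry12* and *Gpr34* at 0 in WT and *Tmem119* and *Fcrls* at 0 in KIN. None of the 4 tested was called by edgeR or DESeq2, and *Cx3cr1*, a chemokine receptor of microglia, had 13, 9 and 19 counts in WT and 6, 2 and 7 in KIN (log2 fold change -1.27, unadjusted *p* = 0.0061, edgeR adjusted *p* = 0.0507). Of 5 astrocyte genes, *Fgfr3*, a growth factor receptor, was called lower by edgeR (log2 fold change -1.17, edgeR adjusted *p* = 0.000132) and by DESeq2. *Gfap*, an astrocyte filament protein of the same list, had 20, 47 and 22 counts in WT and 65, 32 and 42 in KIN, a value of the opposite sign under the fold limit (0.80, edgeR adjusted *p* = 0.0367), and the other 3 lay between -0.66 and -0.50 and were not called. The list summed to 205 to 298 CPM in WT and 156 to 159.7 CPM in KIN, without overlap. Of 4 oligodendrocyte genes, *Mog*, a myelin protein, was called higher (1.27, edgeR adjusted *p* = 0.000106), also by DESeq2, and the list summed to 228 to 364 CPM in WT and 317 to 339 CPM in KIN. Of 4 genes of lymphatic endothelium, which other cells express too, *Prox1* (1.22) and *Pdpn* (1.0007) were called higher by edgeR but not by DESeq2, *Flt4* was at -1.33 and not called, and the list summed to 5.31 to 9.11 CPM in WT and 14.8 to 15.7 CPM in KIN. The part of RNA of these cell types in the *Ms4a7* and *Ccr2* results was not tested.

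Of 14 paralogs, 7 were tested in astrocytes. Among those called, *Ms4a6d*, of the same family as *Ms4a7*, was lower, with 18, 13 and 20 counts in WT and 6, 5 and 2 in KIN (log2 fold change -1.78, SE 0.432, edgeR adjusted *p* = 0.00365). In microglia, 7 of the 14 were tested and none was called.

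The difference between the KIN effects in microglia and astrocytes was tested as an interaction, in which none of the 7 tested genes was called by edgeR, against 1.16% of all genes. The largest, *Ccr2*, had a difference of 2.50 (SE 0.897, unadjusted *p* = 0.00685, edgeR adjusted *p* = 0.158), and *Ms4a7* of 1.37 (SE 0.632, unadjusted *p* = 0.0335, edgeR adjusted *p* = 0.326). These 2 were the members at an unadjusted *p* under 0.05. Without KIN astrocyte library 3, *Ccr2* was called (5.73, edgeR adjusted *p* = 0.0423).

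In neurons, the same 3 genes as in astrocytes were tested and none was called by edgeR, against 0.074% of the 6756 genes tested, and none had an unadjusted *p* under 0.05. The log2 fold changes were 0.47 for *Ccr2* (SE 0.899), -0.31 for *F13a1* (SE 0.531) and 0.12 for *Ms4a7* (SE 0.508), all with overlap between genotypes, where 14.1% of all genes had none.

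*Lyz2* alone reached a mean of 20 counts in the microglia libraries, and its pattern was compared with those of 2624 other genes over these 6 libraries. The genes most like it were *Ctss*, the lysosomal protease cathepsin S (Pearson's r = 0.996), *Rps19*, a ribosomal protein (0.993), and *Gusb*, the lysosomal beta-glucuronidase (0.991). These values describe 6 libraries that fall into 2 genotypes and share their depth.

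*Lyz2* (chr10:117111557-117118346, minus strand) has a close copy beside it, *Lyz1*, made mainly in the gut. Lyz2-201 with 2995 bases and Lyz1-201 with 1269 bases matched at 95.8% of 1270 aligned positions, with a shared exact run of 118 bases, so that reads from such runs cannot be assigned to one or the other. *Lyz1* had 1, 0 and 1 counts in WT microglia and 5, 4 and 1 in KIN microglia, and 439 of the 2966 stretches of 30 bases in Lyz2-201 occur in Lyz1-201.

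The 250 bases before the first annotated start of *Lyz2* and *Mrc1*, which did not overlap between genotypes in microglia, are shown from GRCm39. Mrc1-201 starts at the end of this window, and Lyz2-201, the transcript with all *Lyz2* counts, 120 bases after it. *Pf4*, which did not overlap either, is not shown, since its counted transcripts start at least 1778 bases after its window. They were read for GAGGAA and AGGAAG on both strands, the core letters of sites for PU.1, an Ets factor of myeloid cells. Where the motifs overlap, they share the letters GAGGAAG. Capitals mark the matches, and each sequence runs 5′ to 3′ on the strand of its gene, from chr10:117118347-117118596 (minus) and chr2:14233901-14234150 (plus).
Lyz2: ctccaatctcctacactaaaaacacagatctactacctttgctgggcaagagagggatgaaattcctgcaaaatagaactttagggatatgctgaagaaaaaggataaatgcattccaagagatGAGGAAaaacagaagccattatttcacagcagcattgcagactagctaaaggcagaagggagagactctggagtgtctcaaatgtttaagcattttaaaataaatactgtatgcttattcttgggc
Mrc1: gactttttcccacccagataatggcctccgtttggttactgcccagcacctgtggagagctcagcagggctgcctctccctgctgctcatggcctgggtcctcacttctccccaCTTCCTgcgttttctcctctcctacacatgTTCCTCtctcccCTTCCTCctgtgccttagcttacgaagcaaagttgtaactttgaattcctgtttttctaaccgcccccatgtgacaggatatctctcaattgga
Of the windows of the 9 genes, set at the first annotated start and not at that of the counted transcripts, 5 held at least 1 of the motifs in this window, where 39.1% of 21738 protein-coding genes did (22.9% for GAGGAA and 29.2% for AGGAAG). The windows of *Cd163*, *Ms4a7*, *Cbr2* and *Ccr2* held no match.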

How the data were processed

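RNA of 18 libraries was depleted of ribosomal RNA, given poly(A) tails by an enzyme, and sequenced from its 3′ ends with molecular identifiers (MACE-seq). The reads are therefore not limited to RNA that had a poly(A) tail of its own. The authors trimmed reads with cutadapt 4.6, mapped them stepwise with Bowtie2 2.4.4 to small RNA, non-coding RNA and cDNA of mm39, and counted them with HTSeq 2.0.2 per transcript, without regard to strand, so that a gene and an antisense partner cannot be told apart. The cDNA step and the count per transcript are those of the table's type column and transcript identifiers. A methods text for the same libraries instead gives the genome with counts per gene, so that how reads were placed on transcripts is uncertain. The deposited values are whole-number counts without normalization. Another 36 columns of per-sample values, 24 of group means and 20 of the authors' comparisons (fold changes and *p* values) were not used here.

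Counts were summed by gene name; 137 transcripts without a name, 0.0124% to 0.0305% of a library, were left out. Genes with 5 counts in at least 2 libraries were tested with edgeR 4.0.16 (TMM, quasi-likelihood, Benjamini-Hochberg over all genes of a fit). KIN was compared with WT on the 6 libraries of a fraction, and fractions and the interaction in fits across fractions. Fold changes use a prior count of 0.125. A floor is 3 counts over a group, and intervals and floors cover counting error only. Alternatives were DESeq2 1.42.0, its size factors, TMM without the 10 most abundant genes, other count minimums, adjusted *p* alone, 1 fit of 18 libraries, a replicate block, each library left out and protein-coding transcripts alone, the last chosen after seeing the data. On simulated microglia counts with a log2 change of 2, 149 of 196 tested changes were recovered with 7 false calls; in simulated astrocytes, 152 of 198 with 5, in neurons 98 of 191 with 8, and in the interaction 71 of 195 with 1.

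All 9 genes are named, and of each list its counts and the called members with the 3 largest changes in microglia and astrocytes; values of other list genes were added after they were seen. Some list genes are not reported here by name. The genes and lists were chosen with earlier results of these data known. No 2 libraries of a group differed by as little as sampling noise (chi-square per degree of freedom at least 1.72).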

Additional observations from a re-analysis of the deposited data

How the results depend on the processing

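Of 142 counts of called genes under the alternatives, 123 stayed within 1.5 times the main count. With a mean of at least 10 counts, which leaves fewer genes to test, 1 gene was called in astrocytes, 1 in microglia against astrocytes, 1 in microglia against neurons and 1 in astrocytes against neurons. With protein-coding transcripts alone, 1 was called in astrocytes, 2 in KIN microglia and 1 in astrocytes against neurons. Leaving out 1 library gave 0 to 2 called genes in astrocytes, 0 to 2 in microglia, 0 to 1 in the interaction, 5 to 7 in microglia against astrocytes, 4 to 5 in microglia against neurons and 1 to 3 in astrocytes against neurons. DESeq2 gave *Ms4a7* and *Ccr2* no adjusted *p* in astrocytes, while *Lyz2* was called in microglia (DESeq2 adjusted *p* = 0.00744).

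Signs turned only for values that had not passed the threshold. With 1 library left out, the KIN log2 fold changes of 3 genes spanned 0. In astrocytes, *F13a1* spanned -0.088 to 0.33. In microglia, *F13a1* spanned -0.064 to 1.077, *Ms4a7* -0.59 to 0.17 and *Ccr2* -0.33 to 0.20. In neurons, *Ms4a7* spanned -0.18 to 0.71 and *Ccr2* -0.17 to 1.602. The interaction of *Mrc1* ran from -0.44 to 3.21 and that of *F13a1* from -0.21 to 0.94, and *Ccr2* in microglia against neurons from -0.16 to 0.70. Protein-coding transcripts alone gave 3.07 for *F13a1* in microglia against neurons, and DESeq2 gave -0.33 for *Mrc1* in astrocytes against neurons. The cause was not tested.

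The deviations of libraries with the same number had r from -0.09 to 0.07 between genotypes of a fraction and from -0.04 to 0.23 between fractions of a genotype, where WT astrocytes and WT microglia had 0.23 for library 2 and 0.11 for library 3. Not every pair passed 0.1, and the labels do not tie the numbers to a mouse. With the replicate number as a block, 2 genes were called in astrocytes, 1 in microglia and 0 in neurons, and 6 in microglia against astrocytes, 4 in microglia against neurons and 3 in astrocytes against neurons, as without it. At this depth, *Cbr2* and *Lyve1* did not reach the count minimum in any comparison, and *Mrc1*, *Cd163*, *Pf4* and *Lyz2* did not in astrocytes or neurons between genotypes.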
